A study of Homo sapiens with 12 samples.

Results

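The clustered histone genes are the genes of the HIST1, HIST2, HIST3 and HIST4 loci that encode the linker histone H1 and the core histones H2A, H2B, H3 and H4. They were taken from a table of 54261 genes by their symbols. Of 76 such symbols, after 14 named as pseudogenes were left out, 66 had an FPKM (a read count scaled by gene length and library depth) above 0 in at least 3 of 12 libraries and are described here. These were 4 H1, 16 H2A, 21 H2B, 12 H3 and 13 H4 genes, of which 49 lie in the HIST1 cluster on chromosome 6, 13 and 3 in the HIST2 and HIST3 clusters on chromosome 1, and 1, HIST4H4, on chromosome 12. RefSeq lists 4 of the 66, HIST2H2BB, HIST2H2BC, HIST2H2BD and HIST3H2BA, as pseudogenes. HIST2H3C was just inside the rule, with 1 read in each of 3 libraries, and HIST3H3, HIST2H2BA and HIST2H3A were just outside, with reads in 2 libraries each.

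The libraries were made from poly(A)-selected RNA of BON-1, an established human pancreatic neuroendocrine tumour line. The cells were grown alone or were sorted by flow cytometry out of a culture shared with CAFs, which usually stands for cancer-associated fibroblasts. Each of 4 groups had 3 libraries: BON-1 alone, and the co-cultures 10:2, 10:4 and 10:6, named by their parts of BON-1 cells to CAFs. The labels give no genotype or added agent, and do not say whether the libraries came from separate cultures, whether BON-1 alone was sorted, or how pure the sorted cells were, so p-values measure the spread between these libraries, which may be technical.

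Histone mRNAs of these clusters are made mainly in S phase, when newly copied DNA is packed into nucleosomes. An H3-H4 tetramer and H2A-H2B dimers form the nucleosome core, and H1 binds the linker DNA. Unlike other mRNAs, the replication-dependent histone mRNAs end in a stem-loop bound by SLBP rather than in a poly(A) tail, and NPAT drives their transcription at nuclear histone locus bodies. Some of these genes also give poly(A)-tailed transcripts. Poly(A) selection therefore reads the tailed RNA of these genes and can miss the stem-loop form, so the levels below are not those of all histone mRNA.

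The stem-loop was searched in the GENCODE 29 transcripts with a set pattern, a stem of 6 base pairs around a loop of 4 bases. The first arm was GG, 2 bases of C or T, then CT. The loop was TT, then T or C, then A, C or T. The second arm was AG, 2 bases of A or G, then CC, with G-U pairs allowed. This stem-loop was present in a transcript model of 32 of the 66 genes, and in 28 of the 30 genes whose model runs at least 60 bases past the stop codon. HIST1H2BJ and HIST1H3E were the exceptions. The models of 29 genes, HIST1H1B, HIST1H1C, HIST1H1D and HIST1H2BK among them, end at the stop codon and cannot show it. Over all 19702 genes with a protein-coding transcript, 34 (0.173%) held it, and 31 of these 34 are among the 76 clustered histone symbols. In the members it started 23 to 68 bases after the stop codon, with a median of 36. The following windows, 5′ to 3′ as DNA with the stem in capitals, are shown because they carry the difference between H4 and the other types and belong to genes whose levels are given below.
HIST3H2A: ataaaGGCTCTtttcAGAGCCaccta
HIST1H2AC: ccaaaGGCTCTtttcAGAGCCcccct
HIST1H2AG: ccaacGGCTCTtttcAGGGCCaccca
HIST1H2BF: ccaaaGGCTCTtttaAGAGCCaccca
HIST1H3H: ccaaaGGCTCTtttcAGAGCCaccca
HIST4H4: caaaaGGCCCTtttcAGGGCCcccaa
HIST1H4H: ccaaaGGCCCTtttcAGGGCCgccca
All 8 H4 genes with the motif had a stem opening GGCCC, and the 7 H2A, 14 H2B and 3 H3 genes had one opening GGCTC. The loop was TTTC or TTTA in those 24 genes, and TTTC in 5 and TTTT in 3 of the 8 H4 genes. The pattern let 2 bases of each arm and 2 of the loop vary, within the choices above, and fixed the rest. A gene with another stem or loop was counted as lacking the stem-loop. In HIST1H2AG and 2 H2B genes the second arm read AGGGCC, so the stem holds a G-U pair in the RNA. The AATAAA signal, which directs cleavage before a poly(A) tail, lay in the last 50 bases of a model of 23 of the 66 genes, against 69.8% of all genes with a protein-coding transcript. The 29 models that end at the stop codon cannot show it either, so that count is a lower limit, and 19 of the 30 models that run at least 60 bases past the stop codon held it. HIST1H2AC, HIST1H2AG, HIST1H2BH, HIST1H3H, HIST1H3G and HIST1H4H had the stem-loop and an AATAAA near an end among their models.

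Promoter windows from RefSeq (GRCh38.p14), 250 bases before to 50 after the start, were given for 57 of the 66 genes. Exact matches were sought to 3 motifs: CCAAT, which reads as ATTGG on the opposite strand; TATAAA, which reads there as TTTATA; and the octamer ATTTGCAT, bound by OCT1, the product of POU2F1, which reads there as ATGCAAAT. CCAAT was present in 48 of the 57 windows, against 34.6% of 35116 windows of the same length, and in all 4 H1, 15 H2A, 17 H2B and 10 H3 windows but only 2 of 11 H4 windows. TATAAA was present in 37 of 57, against 11.5% of all windows. The octamer was present in 10 of 15 H2A and 13 of 17 H2B windows and in no H1, H3 or H4 window, against 1.77% of all windows. Many H2A and H2B windows overlap on opposite strands, as those of HIST1H2AG and HIST1H2BJ do. Since both strands were searched, the same bases can count once for H2A and again for H2B. The H2A and H2B counts of all 3 motifs are therefore not independent. The windows of the 2 genes with the highest levels and of HIST1H2BJ, which shares its promoter region with HIST1H2AG, are shown with these matches in capitals, and a TTTATAAA run holds overlapping matches to TTTATA and TATAAA.
HIST1H2BK (chr6:27146806-27147105, minus strand): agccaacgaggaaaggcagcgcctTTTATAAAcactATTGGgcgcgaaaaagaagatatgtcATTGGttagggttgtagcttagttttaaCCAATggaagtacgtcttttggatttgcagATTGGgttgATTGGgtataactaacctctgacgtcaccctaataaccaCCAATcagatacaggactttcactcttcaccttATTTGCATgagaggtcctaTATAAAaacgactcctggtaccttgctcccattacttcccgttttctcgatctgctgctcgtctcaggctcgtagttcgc
HIST3H2A (chr1:228457824-228458123, minus strand): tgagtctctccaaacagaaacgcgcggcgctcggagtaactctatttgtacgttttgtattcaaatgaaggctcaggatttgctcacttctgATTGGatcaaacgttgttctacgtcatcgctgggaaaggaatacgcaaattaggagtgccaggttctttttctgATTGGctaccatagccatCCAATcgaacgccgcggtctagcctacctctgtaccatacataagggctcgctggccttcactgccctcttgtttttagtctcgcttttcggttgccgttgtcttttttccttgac
HIST1H2BJ (chr6:27132746-27133045, minus strand): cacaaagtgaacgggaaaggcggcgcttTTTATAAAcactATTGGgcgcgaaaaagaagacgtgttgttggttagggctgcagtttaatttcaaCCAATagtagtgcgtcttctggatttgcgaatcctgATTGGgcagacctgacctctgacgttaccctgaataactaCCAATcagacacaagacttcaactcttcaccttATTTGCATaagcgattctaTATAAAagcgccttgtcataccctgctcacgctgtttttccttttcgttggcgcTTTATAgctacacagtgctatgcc
HIST1H2BK and HIST1H2BJ each held 1 octamer, with 6 and 4 CCAAT matches, while HIST3H2A held 3 CCAAT matches and neither of the other motifs. A match in these letters is a description and does not show binding.

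Most clustered histone genes were low in these libraries. The mean FPKM over 12 libraries was below 1 for 28 of the 66 genes, had a median of 1.23, and ranged from 0.0298 for HIST2H3C to 86.3 for HIST1H2BK. Only 11 genes reached a mean of 5 FPKM and 4 reached 20. These 4, HIST1H2BK, HIST3H2A, HIST1H1C and HIST1H2AC, made up 60.2% to 66.2% of the summed FPKM of all 66 in each library. HIST1H2BK stood above 93.4% and HIST3H2A above 92.9% of the 13312 genes that reached 1 FPKM in at least 3 libraries, whose median was 7.22 FPKM. In H3 and H4 no gene had a mean above 5.19 FPKM. 

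**Figure D1:**
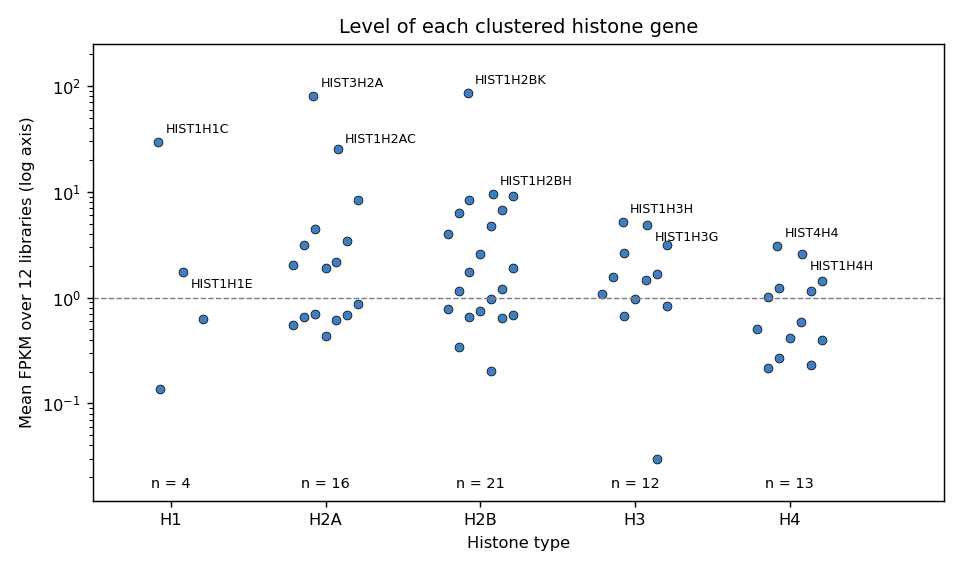
Mean FPKM over 12 libraries (log axis) of each of the 66 clustered histone genes, 1 point per gene, by histone type, with the 2 highest genes of each type named and the dashed line at 1 FPKM. HIST1H2BK at 86.3 and HIST3H2A at 80.6 FPKM stand far above the other H2B and H2A genes, and the H4 genes lie at or below 3.08 FPKM.

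FPKM values were whole multiples of what 1 read is worth, which gave back the reads. The libraries held 11703624 to 21882537 reads, and the 66 genes took 0.0211% to 0.0242% of them. The median gene had 93 reads over all 12 libraries and 9 in a single library, 34 genes had fewer than 100 reads in all, and 13 had a library at 0. HIST2H4B had no read in any library of the 10:4 group, where 3 reads over the group would be 0.189 FPKM, and HIST2H3C none at 10:2 or 10:6, where 3 reads would be 0.154 and 0.138 FPKM. These limits cover counting error only. Among the 32 genes with at least 100 reads, the spread within groups was a median of 1.30 times counting noise as a variance ratio, against 1.82 over 12759 other genes tested. Counted lengths had a median of 464 bases and were under 600 for 57 genes. In 21 genes the GENCODE exons were at least 2 times as long as the counted length, so reads past the short form may be missing there. HIST2H2AA3 and HIST2H2AA4, HIST2H4A and HIST2H4B, and HIST2H3A and HIST2H3C are near-identical copies, and their split of reads is uncertain. The models of 17 members overlap another gene. Members overlap each other in HIST1H2AM with HIST1H3J, HIST1H2AL and HIST1H2AK with HIST1H2BN, HIST2H2BC with HIST2H2BD, and HIST2H4A with HIST2H3C, while HIST2H4B overlaps HIST2H3A, and HIST1H2BD, HIST1H2BE, HIST1H3D, HIST1H2AD, HIST2H2BB, HIST2H2BF and HIST2H2AB overlap genes other than clustered histone genes. The sources used here do not say how shared or multiply placed reads were counted or whether strand was used.

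H2A and H2B genes often lie head to head and are transcribed away from each other. In 13 head-to-head pairs of members the annotated starts lay at most 1000 bases apart. Of these, 12 joined an H2A with an H2B gene and 1 joined HIST1H3J with HIST1H2BO, which is also the partner of HIST1H2AM. The HIST1H3J start is that of a 2-exon GENCODE model that runs into HIST1H2AM, while RefSeq gives the gene a span of 512 bases. The start of HIST1H2AM lies between those of HIST1H3J and HIST1H2BO, so this pair rests on the model and is uncertain. Levels within a pair could differ widely. HIST1H2BK averaged 86.3 FPKM and HIST1H2AH, which starts 330 bases away on the other strand, 0.870 FPKM, a ratio of 99.3. HIST3H2A averaged 80.6 FPKM and HIST3H2BB 2.56, a ratio of 31.5. HIST1H2AC averaged 25.6 FPKM, against 4.00 for HIST1H2BC. In other pairs both genes were alike, as for HIST2H2AC at 8.36 and HIST2H2BE at 6.77 FPKM, or HIST1H2BJ at 6.32 and HIST1H2AG at 4.44. The gap of a pair was thus from 1.10-fold in HIST1H2BF and HIST1H2AD to 99.3-fold.

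**Figure D2:**
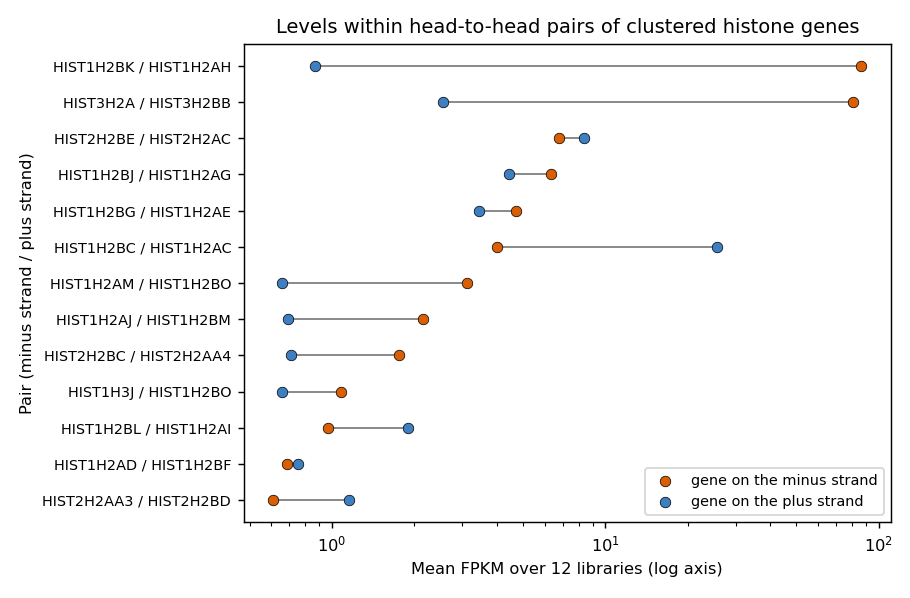
Mean FPKM over 12 libraries (log axis) of both genes in each of 13 head-to-head pairs, joined by a line, with the minus-strand gene in orange and the plus-strand gene in blue. The widest gap is that of HIST1H2BK at 86.3 and HIST1H2AH at 0.870 FPKM.

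Summed over the 66 genes, the level was 368 to 381 FPKM in BON-1 alone, 344 to 367 at 10:2, 343 to 367 at 10:4 and 327 to 336 at 10:6. All 3 libraries at 10:6 lay below the other 9, a description with no test. The H2A genes summed to 147 ± 4.86 FPKM in BON-1 alone, 135 ± 7.88 at 10:2, 139 ± 7.93 at 10:4 and 123 ± 2.30 at 10:6 (SD, n = 3 each). For H2B the sums were 154 ± 5.62 in BON-1 alone, 153 ± 11.2 at 10:2, 145 ± 3.01 at 10:4 and 143 ± 0.752 at 10:6. H1 genes summed to 34.3 ± 2.49, 29.5 ± 1.82, 33.3 ± 1.74 and 30.8 ± 0.314 FPKM in that order of groups. Sums were 24.3 ± 3.07, 25.3 ± 2.12, 24.4 ± 2.11 and 22.5 ± 0.607 for H3 and 13.2 ± 1.24, 13.8 ± 2.90, 13.7 ± 2.34 and 11.7 ± 1.22 for H4, whose groups overlapped. The sums were not adjusted for trends on GC content and gene length. With these removed, the median log2 change of the 51 members tested below was -0.01 at 10:6 against BON-1 alone, and -0.10 without. The calls of HIST1H2BK and HIST3H2A, the highest genes, also ended there. What lay behind the lower sums was not tested, and in bulk libraries fewer cells in S phase and less RNA per cell cannot be told apart.

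**Figure D3:**
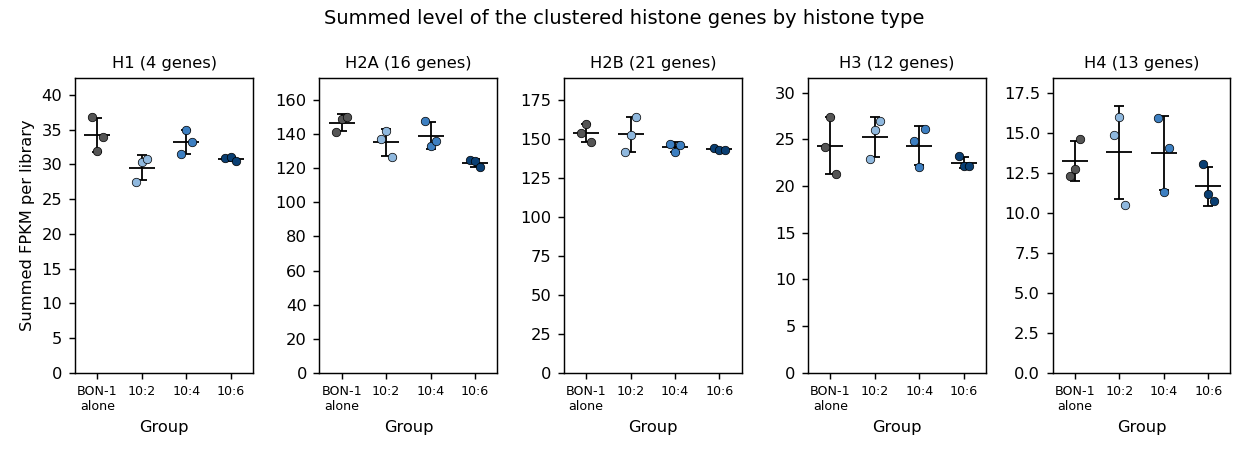
Summed FPKM of the clustered histone genes of each type in each library, by group, with the mean as a bar and the SD as error bars (n = 3 libraries). The 10:6 libraries have the lowest H2A sums, 121 to 125 FPKM, and the 5 types keep the same order of size in all groups.

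Each co-culture was compared with BON-1 alone, and the ratios with each other, in limma on log2(FPKM + 1) over the 13312 genes, with p-values adjusted by Benjamini-Hochberg over all of them. Of the 66 members 51 reached the level to be tested, and the other 15 had mean FPKM of 0.0298 to 0.782. At 10:2 against BON-1 alone 1 member rose and 2 fell, or 5.88% of the 51, while 27.4% of all genes tested passed. At 10:4 against BON-1 alone 2 rose and 2 fell, or 7.84%, against 45.4% of all genes. At 10:6 against BON-1 alone 2 rose and 4 fell, or 11.8%, against 48.0% of all genes. The median log2 change of the 51 members was 0.01, 0.00 and -0.10 at 10:2, 10:4 and 10:6, against 0.00, -0.01 and 0.02 over all genes tested. At 10:6, 35 of the 51 changes were below 0, and the split became 2 up and 8 down with median-of-ratios scaling and 0 up and 10 down with quantile normalization. Under these settings 53.6% and 48.8% of all genes tested passed. The median log2 change was then -0.14 and -0.20 over the members, and -0.03 and -0.06 over all genes. Single libraries moved these counts: without BON-1 alone replicate 3 there was 1 call at 10:2, without BON-1 alone replicate 1 or 10:4 replicate 2 there were 2 at 10:4, and at 10:6 there were 2 without BON-1 alone replicate 1 and 3 without 10:6 replicate 1.

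The members' shares were below the background in each of these comparisons, and their levels were lower too, with a median of 1.89 FPKM over those tested. Below 1 FPKM, 2 of 13 members (15.4%) and 22.7% of all 678 such genes passed at 10:6 against BON-1 alone. Within genes of 1 to 5 FPKM, 1 of 27 members (3.7%) and 38.1% of all 4824 such genes passed at 10:6. In the class of 5 to 20 FPKM the shares were 1 of 7 members and 50.8% of 4326 genes, and at 20 FPKM or more 2 of 4 members and 63.3% of 3484 genes. These classes match FPKM and not reads. Members had a median counted length of 464 bases, and a short gene holds fewer reads than a long gene at the same FPKM. What lay behind the lower shares of the members was not tested. Between ratios, 1 member rose and none fell at 10:4 against 10:2 (1.96% of 51, background 2.88%), and 1 rose and none fell at 10:6 against 10:2 (1.96%, background 6.97%). The first of these counts was 0 in 10 of the 12 fits that left out a library, all but those without BON-1 alone replicate 2 or 10:6 replicate 1. The second was 0 without BON-1 alone replicate 2, 10:2 replicate 2 or 3, or 10:6 replicate 2 or 3, and without 10:6 replicate 1 no member rose and 2 fell. At 10:6 against 10:4 no member passed limma (background 0.331%). There 8 of the 51 members (15.7%) had an unadjusted limma p under 0.05, near the 13.3% of all genes tested. Limma-voom on the recovered reads gave 0 calls as well (background 2.07%). In all, 12 members passed in at least 1 comparison, and HIST1H2BK alone passed at more than 1 ratio against BON-1 alone. These made 15 calls, of which 8 were kept with trends on GC content and gene length removed, 9 in limma-voom on the recovered reads, 7 with quantile normalization and 15 with median-of-ratios scaling. The 3 comparisons with BON-1 alone share its libraries.

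**Figure D4:**
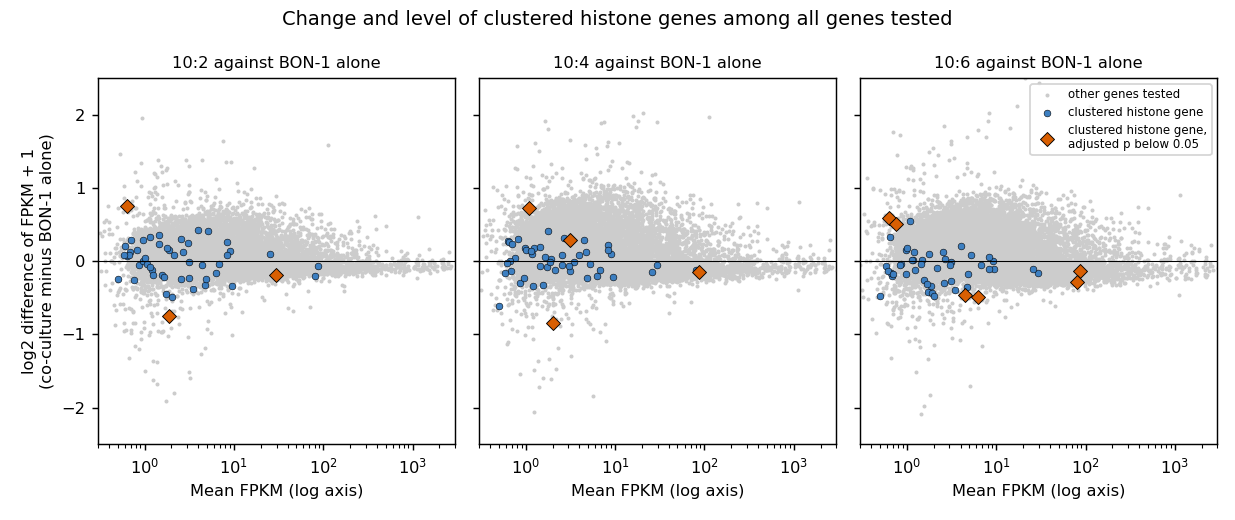
Log2 difference of FPKM + 1 (co-culture minus BON-1 alone) against mean FPKM (log axis) for all genes tested in grey, clustered histone genes in blue and those with an adjusted p below 0.05 as orange diamonds; 14, 14 and 17 other genes lie outside the axes at 10:2, 10:4 and 10:6. At 10:6, 4 of the 6 diamonds lie below 0, at HIST1H2BJ, HIST1H2AG, HIST3H2A and HIST1H2BK.

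Of the linker histones, HIST1H1C (RefSeq H1-2) had 33.7, 29.4 and 31.6 FPKM in the BON-1 alone libraries, 25.7, 28.9 and 28.2 at 10:2, 28.6, 33.2 and 29.6 at 10:4 and 28.7, 27.9 and 27.9 at 10:6. The 10:2 libraries lay below all of BON-1 alone, and the log2 change was -0.19 (SE 0.06, limma adjusted p = 0.0461). That call ended in 8 of 12 fits that each left out 1 library, with adjusted p from 0.0539 without 10:4 replicate 3 to 0.163 without BON-1 alone replicate 1. The others in which it ended left out BON-1 alone replicate 3, 10:2 replicates 1 and 3, and 10:6 replicates 1, 2 and 3. It also ended in 8 of 12 other alternatives, among them trend removal on GC content and length, quantile normalization, the replicate block and limma-voom. HIST1H1D (H1-3) was low, with 0.154, 0.529 and 0.398 FPKM in BON-1 alone, 0.440, 0.190 and 0.681 at 10:2, 0.543, 0.306 and 1.17 at 10:4 and 0.762, 1.18 and 1.19 at 10:6, from 2 to 14 reads per library. It rose at 10:6 against BON-1 alone, where all 3 libraries lay above those of BON-1 alone (log2 change 0.59, SE 0.20, limma adjusted p = 0.0287), and the call ended without BON-1 alone replicate 1 or 3 or 10:6 replicate 2 or 3 (adjusted p = 0.0547 to 0.106). HIST1H1E (H1-4) had 2.89, 1.92 and 1.77 FPKM in BON-1 alone, 0.980, 1.32 and 1.73 at 10:2, 2.24, 1.41 and 2.42 at 10:4 and 1.32, 1.99 and 0.904 at 10:6, and passed in no comparison.

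HIST3H2A (H2AC25), the only H2A gene of HIST3, had 83.6, 89.6 and 94.7 FPKM in BON-1 alone, 80.3, 80.8 and 72.1 at 10:2, 91.3, 80.5 and 74.8 at 10:4 and 71.7, 72.3 and 75.4 at 10:6. All 10:6 libraries were below all BON-1 alone libraries, and the gene fell at 10:6 by 0.28 on the log2 scale (SE 0.07, limma adjusted p = 0.00593), a call kept in all 12 fits that left out a library. With trends on GC content and gene length removed from each library the change was -0.14 (adjusted p = 0.122). HIST1H2AC (H2AC6) had 25.6, 26.3 and 26.7 FPKM in BON-1 alone, 25.8, 33.1 and 26.2 at 10:2, 23.2, 20.1 and 27.7 at 10:4 and 26.0, 26.2 and 20.8 at 10:6, and passed in no comparison. HIST1H2AG (H2AC11), the partner of HIST1H2BJ, had 5.39, 4.96 and 3.42 FPKM in BON-1 alone, 4.98, 4.46 and 3.65 at 10:2, 6.36, 5.42 and 5.49 at 10:4 and 2.23, 3.54 and 3.42 at 10:6. It fell at 10:6 against BON-1 alone by 0.46 (SE 0.16, limma adjusted p = 0.0312), although the groups overlapped. The call ended without BON-1 alone replicate 1 or 2 or 10:6 replicate 1 (adjusted p = 0.0979 to 0.123).

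The other H2A genes past the threshold differed at 10:2 or 10:4. HIST1H2AI (H2AC13) had 2.16, 3.22 and 1.98 FPKM in BON-1 alone, 1.28, 1.26 and 0.645 at 10:2, 3.30, 1.86 and 2.43 at 10:4 and 1.58, 1.67 and 1.36 at 10:6, from 4 to 33 reads per library. All 10:2 libraries lay below the BON-1 alone and 10:4 libraries. The log2 change was -0.74 at 10:2 against BON-1 alone (SE 0.18, limma adjusted p = 0.00914), kept whichever library was left out. At 10:4 against 10:2 it was 0.77 (limma adjusted p = 0.0421), a call that held only in the fits without BON-1 alone replicate 2 or 10:6 replicate 1 among the 12, and otherwise had adjusted p of 0.0503 to 0.104. HIST1H2AL (H2AC16) had 3.94, 2.24 and 2.96 FPKM in BON-1 alone, 0.909, 2.20 and 2.74 at 10:2, 1.05, 1.69 and 0.970 at 10:4 and 2.36, 1.67 and 1.66 at 10:6. Its 10:4 libraries lay below BON-1 alone, and it fell by 0.85 on the log2 scale (SE 0.23, limma adjusted p = 0.0116, or 0.0511 without BON-1 alone replicate 1). HIST1H2AM (H2AC17) had 3.19, 2.72 and 2.86 FPKM in BON-1 alone, 2.98, 2.58 and 3.11 at 10:2, 3.61, 3.91 and 3.90 at 10:4 and 2.73, 3.35 and 2.62 at 10:6. The 10:4 libraries lay above those of BON-1 alone (log2 change 0.29, SE 0.08, limma adjusted p = 0.0134, or 0.0538 without BON-1 alone replicate 2). Its spread within groups was 0.193 times counting noise, the lowest of the 32 members with at least 100 reads, so this SE is below what counting its 262 reads would give. The call ended with quantile normalization and in limma-voom on the recovered reads.

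Among H2B genes, HIST1H2BK (H2BC12) had 91.9, 92.1 and 90.8 FPKM in BON-1 alone, 83.3, 85.3 and 93.7 at 10:2, 86.0, 79.3 and 82.4 at 10:4 and 83.1, 82.5 and 85.7 at 10:6, from 818 to 1691 reads per library. All libraries at 10:4 and 10:6 lay below those of BON-1 alone. The log2 change was -0.15 at 10:4 (SE 0.04, limma adjusted p = 0.0151) and -0.13 at 10:6 (SE 0.04, limma adjusted p = 0.0293). With the GC and length trends removed the 10:6 change turned to 0.03 (adjusted p = 0.675), and the 10:4 call ended. The GC content used there, 61.2%, was that of a GENCODE model of 381 bases, while the counted length was 839 bases. The 10:4 call also ended without 10:4 replicate 2 (adjusted p = 0.0648). The 10:6 call ended without any 1 of the BON-1 alone libraries or without 10:6 replicate 1 or 2 (adjusted p = 0.0555 to 0.0866). HIST1H2BJ (H2BC11) had 7.69, 6.56 and 7.89 FPKM in BON-1 alone, 5.51, 7.38 and 6.76 at 10:2, 7.60, 6.43 and 5.05 at 10:4 and 4.00, 5.83 and 5.16 at 10:6. The 10:6 libraries lay below all of BON-1 alone, and the gene fell by 0.49 (SE 0.14, limma adjusted p = 0.0151). The change was -0.50 with the trends removed (adjusted p = 0.0201), and the call was lost when BON-1 alone replicate 3 (adjusted p = 0.0520) or 10:6 replicate 1 (adjusted p = 0.0617) was left out. Both genes of the HIST1H2BJ and HIST1H2AG pair fell at 10:6, while at 10:4 against BON-1 alone their log2 changes were -0.20 and 0.29, neither past the threshold. The HIST1H2AG call at 10:6 also ended in limma-voom on the recovered reads.

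HIST1H2BH (H2BC9), the second highest H2B gene, had 8.99, 12.04 and 11.1 FPKM in BON-1 alone, 5.63, 8.53 and 11.2 at 10:2, 8.94, 8.77 and 9.48 at 10:4 and 8.70, 11.97 and 9.01 at 10:6, and passed in no comparison. A pair of low H2B genes rose. HIST1H2BF (H2BC7) had 0.694, 0.638 and 0.540 FPKM in BON-1 alone, 0.596, 0.172 and 0.352 at 10:2, 0.491, 1.29 and 0.353 at 10:4 and 1.38, 1.06 and 1.48 at 10:6, from 1 to 9 reads per library. Its 10:6 libraries lay above those of BON-1 alone and of 10:2, with log2 changes of 0.50 against BON-1 alone (SE 0.18, limma adjusted p = 0.0410) and 0.76 against 10:2 (limma adjusted p = 0.0346). Each call ended in 6 of the 12 fits that left out a library. Against BON-1 alone these were each BON-1 alone library, 10:2 replicate 3 and 10:6 replicates 1 and 3 (adjusted p = 0.0511 to 0.119), and against 10:2 BON-1 alone replicate 2, 10:2 replicates 2 and 3 and each 10:6 library (adjusted p = 0.0511 to 0.128). With GC and length trends removed the change against BON-1 alone was 0.21 (adjusted p = 0.419). HIST1H2BI (H2BC10) had 0.410, 0.209 and 0.177 FPKM in BON-1 alone, 0.978, 1.18 and 1.21 at 10:2, 0.483, 0.363 and 0.695 at 10:4 and 1.35, 0.149 and 0.487 at 10:6, from 1 to 8 reads per library. It rose at 10:2 with no overlap (log2 change 0.75, SE 0.21, limma adjusted p = 0.0224), and the call ended without BON-1 alone replicate 2 or 3 or 10:2 replicate 2 or 3 (adjusted p = 0.0532 to 0.0694).

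**Figure D5:**
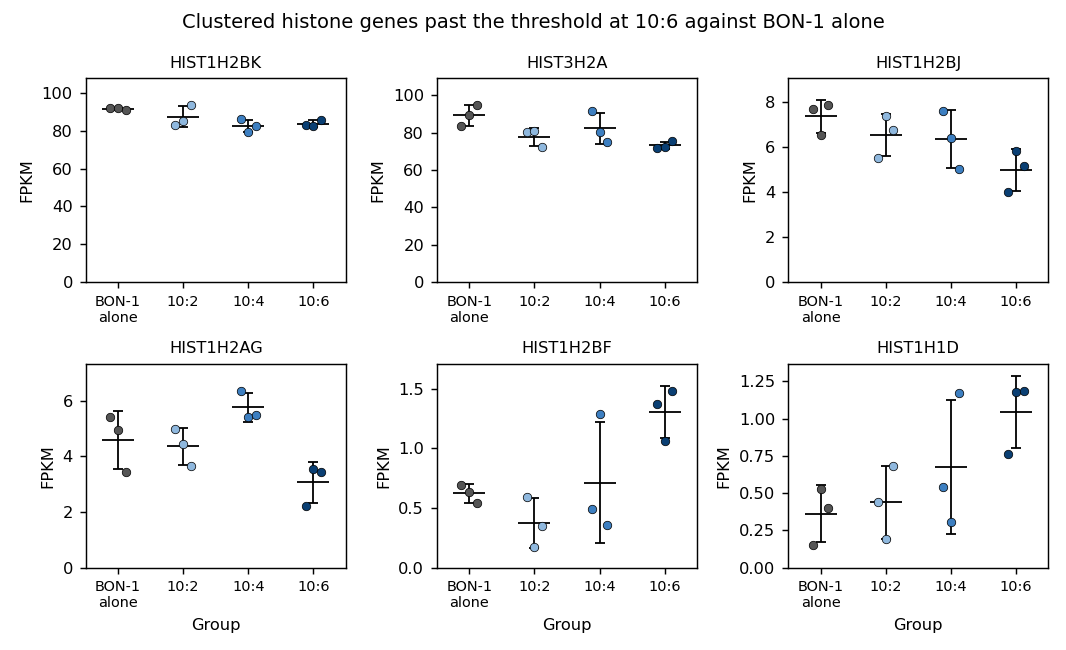
FPKM in each library, by group, of the 6 clustered histone genes past the threshold at 10:6 against BON-1 alone, with the mean as a bar and the SD as error bars (n = 3 libraries). HIST1H2BK, HIST3H2A and HIST1H2BJ are lower at 10:6 than in every BON-1 alone library, HIST1H2AG overlaps, and HIST1H2BF and HIST1H1D are higher at no more than 1.48 FPKM.

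Among the H3 and H4 genes, HIST1H3J alone passed in a comparison. HIST1H3H (H3C10) had 5.30, 5.89 and 3.11 FPKM in BON-1 alone, 7.23, 5.63 and 6.72 at 10:2, 4.31, 4.03 and 5.14 at 10:4 and 4.69, 4.55 and 5.70 at 10:6. HIST1H3G (H3C8) had 4.09, 6.65 and 5.80 FPKM in BON-1 alone, 3.29, 6.18 and 4.21 at 10:2, 4.97, 3.74 and 4.88 at 10:4 and 6.02, 5.03 and 3.34 at 10:6. Neither passed in any comparison, and every co-culture overlapped BON-1 alone. HIST1H3J (H3C12), whose model overlaps HIST1H2AM on the same strand, had 0.499, 0.860 and 0.486 FPKM in BON-1 alone, 0.715, 0.155 and 0.950 at 10:2, 1.03, 2.16 and 1.91 at 10:4 and 1.86, 0.955 and 1.34 at 10:6. It rose at 10:4 with no overlap (log2 change 0.72, SE 0.22, limma adjusted p = 0.0196), from 1 to 13 reads per library, and the call ended without BON-1 alone replicate 1 or 3 or 10:4 replicate 2 or 3 (adjusted p = 0.0600 to 0.0783). Among H4 genes, HIST4H4 (H4C16) had 1.88, 2.66 and 4.51 FPKM in BON-1 alone, 4.36, 4.13 and 2.57 at 10:2, 2.56, 1.73 and 4.24 at 10:4 and 2.51, 3.17 and 2.58 at 10:6. HIST1H4H (H4C8) had 3.19, 2.57 and 2.69 FPKM in BON-1 alone, 2.51, 2.18 and 2.02 at 10:2, 3.95, 2.12 and 3.25 at 10:4 and 2.57, 1.57 and 2.28 at 10:6. No H4 gene passed in any comparison.

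Genes that make and end histone mRNA moved in both directions in co-culture. Of 21 tested genes of histone mRNA processing and transcription, 10 rose and 6 fell at 10:6 against BON-1 alone, with a median log2 change of 0.14, where 48.0% of all genes tested passed. That median was -0.0056 with GC and length trends removed. The 24 genes of the list summed to 520 to 527 FPKM in BON-1 alone and 502 to 511 at 10:6. The genes named below were all higher at 10:6, and none of the 6 that fell is named. Their counts were 9 and 6 at 10:4, and 8 and 4 at 10:2. SLBP, which binds the stem-loop, had 46.4 ± 1.34 FPKM at 10:6 and 40.8 ± 2.99 FPKM in BON-1 alone (SD, n = 3 each; log2 change 0.18, limma adjusted p = 0.00892). NPAT was too low to be tested, at 0.426 ± 0.0702 FPKM at 10:6 and 0.231 ± 0.0177 FPKM in BON-1 alone. CPSF3, the endonuclease that cuts both histone and poly(A)-tailed pre-mRNAs, had 16.1 ± 0.676 FPKM at 10:6 and 9.21 ± 0.370 in BON-1 alone. CPSF2, its partner in the cleavage complex, had 8.03 ± 0.397 FPKM at 10:6 and 3.78 ± 0.216 in BON-1 alone. NCBP1, of the cap-binding complex, had 13.2 ± 0.438 at 10:6 and 7.44 ± 0.463 in BON-1 alone. Their log2 changes of 0.75, 0.92 and 0.75 (limma adjusted p of 4.47e-07, 2.03e-07 and 9.80e-07) were 0.45, 0.48 and 0.34 with GC and length trends removed, where 6 of 20 genes of the list rose and 3 fell and 25.6% of all 12140 genes passed. The same shares of all genes, 48.0% and 25.6%, are the background of the list counts that follow.

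Most replication-independent variants are made outside S phase too and from poly(A)-tailed mRNA, though this need not hold for every gene listed, H2AFX among them. The 12 genes of this list summed to 1876 to 1971 FPKM in BON-1 alone, where the 66 clustered genes summed to 368 to 381 FPKM. At 10:6 against BON-1 alone 1 of 11 rose and 2 fell, with a median log2 change of 0.00. H2AFX, the variant phosphorylated at DNA breaks, had 143 ± 6.82 FPKM at 10:6 and 164 ± 5.05 in BON-1 alone (log2 change -0.20, limma adjusted p = 0.00201). That call ended with the trends removed (adjusted p = 0.153). H2AFJ, an H2A variant, had 50.3 ± 1.66 FPKM at 10:6 and 58.6 ± 2.02 in BON-1 alone (log2 change -0.22, limma adjusted p = 0.00129, and -0.56 with the trends removed). H3F3B, which encodes H3.3, had 255 ± 9.11 FPKM at 10:6 and 240.1 ± 6.05 in BON-1 alone (log2 change 0.08, limma adjusted p = 0.0393). 

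Of 21 tested histone chaperones and partners of histone acetylation, 10 rose and 9 fell at 10:6 against BON-1 alone, with a median log2 change of 0.07, or 3 and 7 with the trends removed. SUPT16H, a subunit of the FACT complex that carries H2A-H2B dimers, had 73.2 ± 0.886 FPKM at 10:6 and 39.7 ± 0.979 in BON-1 alone (log2 change 0.87, limma adjusted p = 3.40e-08). NAP1L1, another H2A-H2B chaperone, had 43.2 ± 1.44 FPKM at 10:6 and 31.1 ± 1.18 in BON-1 alone (log2 change 0.46, limma adjusted p = 7.92e-06), and its call ended with the trends removed (log2 change 0.03). IPO4, which imports H3-H4 into the nucleus, had 85.6 ± 1.45 FPKM at 10:6 and 103.8 ± 0.752 in BON-1 alone (log2 change -0.28, limma adjusted p = 2.03e-05, and -0.16 with the trends removed).

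S-phase genes, whose products copy DNA or supply nucleotides while histones are made, split as well. Of 24 tested, 9 rose and 12 fell at 10:6 against BON-1 alone, with a median log2 change of -0.09, or 2 and 7 with the trends removed. RRM1, a subunit of ribonucleotide reductase, had 53.4 ± 1.36 FPKM at 10:6 and 31.9 ± 0.313 in BON-1 alone (log2 change 0.72, limma adjusted p = 4.68e-08, and 0.43 with the trends removed). MCM6 and MCM7, both of the replicative helicase, moved apart. MCM6 had 40.4 ± 0.393 FPKM at 10:6 and 31.6 ± 0.912 in BON-1 alone (log2 change 0.35, limma adjusted p = 8.98e-06), and its call ended with the trends removed (log2 change 0.02). MCM7 had 163.9 ± 1.25 FPKM at 10:6 and 195 ± 4.27 in BON-1 alone (log2 change -0.25, limma adjusted p = 7.41e-06, and -0.13 with the trends removed).

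GC content, and the markers of other cell types, were measured beside these results. The median GC content of transcripts was 57.4% in the 51 tested members and 49.7% in the tested genes with a known value. With trends on GC content and length removed, 2 members rose and 5 fell at 10:6 against BON-1 alone, or 7 of 51, against 25.6% of all 12140 genes, with a median log2 change of -0.01. Of 20 fibroblast markers, 16 were tested, and 14 rose and none fell at 10:6 against BON-1 alone. The summed level of all 20 was 2407 to 2488 FPKM in BON-1 alone, 2282 to 2361 at 10:2, 2376 to 2623 at 10:4 and 2562 to 2848 at 10:6, and 0 of the 20 were at 0 throughout a group. S100A4, which BON-1 alone expressed at 2281 ± 43.9 FPKM, dominated that sum, whereas COL1A1, a collagen chain, had 54.4 ± 0.794 FPKM at 10:6 and 9.22 ± 0.148 in BON-1 alone. Leukocyte and endothelial markers summed to 46.6 to 51.3 FPKM over all libraries, and of 4 tested 2 rose and 1 fell at 10:6 against BON-1 alone, or 1 and 0 with the trends removed. The 10 neuroendocrine and epithelial markers, which define BON-1, summed to at least 6717 FPKM in each library, and 4 rose and 6 fell at 10:6 against BON-1 alone, or 3 and 1 with the trends removed. The part of RNA from CAFs in the changes of the histone genes was not tested.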

How the data were processed

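The authors deposited 1 table of FPKM values for 54261 genes, with a column per library for 12 libraries. The submitters' processing notes name HISAT2, featureCounts and hg38, with no version or role. The code in a sample's title gave its column, and 0 columns had no sample. The members and gene lists were chosen with earlier results of these data known.

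Reads were recovered by finding, up to 200000 bases, the gene length that turns all FPKM of a gene into whole numbers (tolerance 1e-07); this worked for 99.9738% of 267349 nonzero values. Depths were 11703624 to 21882537 reads, and at least 99.9629% of each was recovered.

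The 13312 genes that reached FPKM 1 in 3 or more libraries were fitted as log2(FPKM + 1), a scale that understates the change of low genes. The fit used limma 3.58.1 under R 4.3.3, with group means, a variance trend and all 12 libraries. P-values were adjusted by Benjamini-Hochberg over all genes tested, with a threshold of 0.05. Replicate libraries differed by more than counting noise. Named genes were HIST1H2BJ and HIST1H2BK, the 2 highest of each histone type, every member past the threshold, SLBP, NPAT and in each pathway list the 3 genes of smallest p for 10:6 against BON-1 alone.

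Alternatives changed the pseudocount (0.1), the filter (FPKM above 0 in at least 3 libraries, or a mean of at least 1), the scaling, the variance model and the groups fitted, added the replicate block, removed trends on GC content and length, used limma-voom on recovered reads, and left out each library. GC content came from the longest GENCODE 29 transcript of each gene, which can differ from the sequence counted, and length was the counted length. Both were known for 12140 genes (91.2%). Promoter windows, gene classes and current symbols came from RefSeq (GRCh38.p14), where 66 of 66 members matched. Gene positions, starts and overlaps came from the GENCODE 29 annotation, and stem-loops from GENCODE 29 transcripts. Tables and plots were made in Python 3.11.15 with numpy 2.4.6, pandas 2.3.3 and matplotlib 3.10.9.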

Additional observations from a re-analysis of the deposited data

How the results depend on the processing

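The counts of members called at 10:2 and 10:4 against BON-1 alone and at 10:6 against 10:4 stayed within 1.5 times under all 12 alternatives other than leaving out a library. At 10:6 against BON-1 alone the count of 6 was 10 with median-of-ratios scaling, 10 with quantile normalization and 2 with the filter of FPKM above 0 in at least 3 libraries. The shares of all genes that passed there were 53.6%, 48.8% and 24.8%. The count was 2 with that filter in limma-voom on recovered reads, an alternative chosen after seeing the data that tests all 66 members. In that fit 28.8% of all genes passed. At 10:4 against 10:2 the count of 1, a rise, was 2 with that filter in limma, both falls, and 0 with quantile normalization, only the groups compared, the replicate block, trend removal, both together, and limma-voom with either filter. At 10:6 against 10:2 the count of 1, a rise, was 1 fall and no rise with that filter in limma or limma-voom and with trend removal with or without the block, and it was 0 with a mean FPKM filter, quantile normalization, only the groups compared, the replicate block and limma-voom. Leaving out a library gave 1 to 4 calls at 10:2, 2 to 6 at 10:4 and 2 to 8 at 10:6 against BON-1 alone, 0 to 1 at 10:4 against 10:2, 0 to 0 at 10:6 against 10:4 and 0 to 2 at 10:6 against 10:2. Replicate numbers did not pair the samples: deviations of 18 same-numbered pairs correlated at -0.0427 to 0.0458, and the replicate block gave 3, 4 and 6 calls against BON-1 alone. The change of HIST1H2BK at 10:6 turned to 0.027 with GC and length trends removed, with or without the block, and no other called change turned. Over the 15 calls, 125 of 180 fits that left out a library and 122 of 176 other alternatives kept the call. The 44 fold changes of named members that did not pass against BON-1 alone turned sign in 17 cases under at least 1 alternative, none larger than 0.18 in the fit reported. The causes were not tested. Depth limits the low genes most, since the median member had 9 reads per library.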
